A study of Mus musculus with 6 samples.

Results

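The scaffold genes of the excitatory postsynaptic density were followed in RNA-seq of the mouse hippocampus: Dlg1, Dlg2, Dlg3 and Dlg4, Shank1, Shank2 and Shank3, Dlgap1 and Homer1. They were picked by symbol and make up 9 of the 54532 genes of the deposited table. All 9 were among the 20952 genes tested, which had a mean of at least 0.1 FPKM (fragments per kilobase of gene, scaled by a factor for each library). The 3 TG libraries came from mice on a C57BL/6N background in which CRISPR/Cas9 had placed the substitutions Gly82Arg and Leu85Pro in Slc1a2, the gene of the glutamate transporter GLT-1. The 3 WT libraries were labelled wildtype, and the study's methods describe WT littermates as controls. The change is in the germ line and not limited to one cell type. Age, sex and zygosity of the sequenced mice are not given in the sources used here. The labels number the samples (as in Wildtype mice 1) and do not say whether each is 1 mouse. Nothing says whether the libraries were prepared separately, so that p-values measure only the spread between these libraries.

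The postsynaptic density is a protein meshwork under the membrane of excitatory synapses. Membrane-associated guanylate kinases of the Dlg family, Dlg4 (PSD-95) foremost, hold glutamate receptors and adhesion molecules through their PDZ domains. Dlgap1 (GKAP) links this upper layer to the Shank proteins, and Homer1 ties Shank to metabotropic glutamate receptors and to calcium stores. Astrocytic GLT-1 clears the glutamate to which these synapses respond, and the comparison asks how transcript levels of the scaffold stood in hippocampus that carried the variants.

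The members of each family are similar enough in coding sequence to share short stretches, and examples are shown to give their length. Between Dlg2 and Dlg4 the longest coding stretch in common had 26 bases, and the same length was found between Shank1 and Shank3. In the 4 lines that follow, from GENCODE vM21 transcripts in GRCm38 and on the + strand, capitals mark the shared bases and lower case the 15 bases on each side. The Dlg pair lies at chr7:92088584-92088639 and chr11:70039184-70039239, and the Shank pair at chr7:44316078-44316133 and chr15:89503165-89503220, each within 1 exon.
Dlg2: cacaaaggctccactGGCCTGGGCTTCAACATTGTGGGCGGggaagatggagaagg
Dlg4: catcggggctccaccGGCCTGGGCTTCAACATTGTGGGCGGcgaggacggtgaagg
Shank1: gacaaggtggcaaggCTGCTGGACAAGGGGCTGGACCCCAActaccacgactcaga
Shank3: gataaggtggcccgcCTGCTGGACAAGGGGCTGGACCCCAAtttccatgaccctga
The stretches lie in coding exons, and the flanks differ within a few bases of each end. Of all 50-base stretches in the exons of a member, 3.29% were also found in another gene for Shank1, 2.41% for Shank3, 1.04% for Dlg4, 0.781% for Dlg2, 0.597% for Dlg1 and 0.298% for Dlgap1, and 0% for Dlg3, Shank2 and Homer1. No other scaffold member was among the genes that shared most with any of them. Dlg2 shared only with Gm45131 and Gm45159, and the genes sharing most with Dlg4 were Gtpbp4 and Apoc4. For Shank1 most of the shared 50-base stretches came from the opposite-strand gene 1700008O03Rik, which overlaps 3.22% of its exon bases. For Shank3 the opposite-strand lincRNA Gm15609 overlaps 2.95%. The counting is not stated to use strand, so reads in these overlaps cannot be told apart.

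The 9 genes are long transcripts on 7 chromosomes. In GRCm38 they occupy chr16:31663443-31875129 (Dlg1), chr7:90476672-92449247 (Dlg2), chrX:100767722-100818410 (Dlg3), chr11:70016942-70047522 (Dlg4), chr7:44310253-44360572 (Shank1), chr7:144001928-144424494 (Shank2), chr15:89499623-89560261 (Shank3), chr17:69969073-70821413 (Dlgap1) and chr13:93299635-93405129 (Homer1), all on the + strand. Their exons combined span 5844 bases in Dlg3 to 17890 bases in Dlgap1. Each value rested on 1554 reads (Dlg1 in WT2) to 14537 reads (Dlg4 in WT3), so that counting error alone was 0.829% to 2.54% of a value.

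All 9 scaffold genes had a higher mean in TG than in WT, by 1.00-fold (Dlg1) to 1.24-fold (Shank3), and none passed a test; Dlg1 and Dlg4 turned negative when gene length was corrected. With limma on log2(FPKM + 0.1), 0 of 9 were higher and 0 of 9 lower at an unadjusted p under 0.05, against 3.13% and 2.78% of all genes tested, and 0 of 9 passed after Benjamini-Hochberg adjustment, against 0.00955%. In none of the 9 did the TG libraries lie apart from the WT libraries, against 12.1% of all genes. The median log2 fold change of the members was 0.14, beside -0.002 over all genes, of which 49.6% were positive. Most of this shift lay in WT3, the lowest library for 6 members, and TG1, the highest for 8. They were noticed in these same values, so this describes where the shift lay and is no test. In bulk tissue, a change in the number of cells of a type and a change in RNA per cell cannot be told apart.

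**Figure D1:**
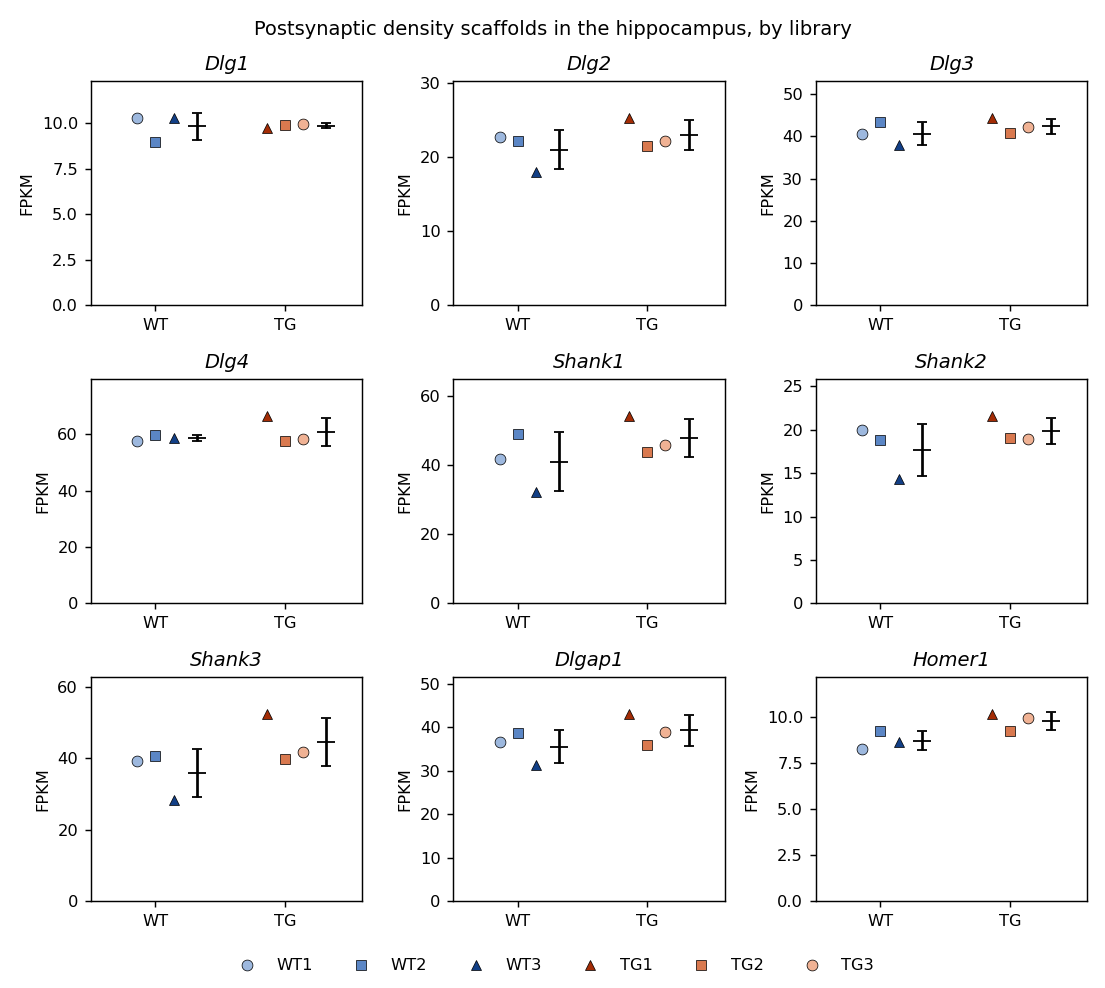
Level of each of the 9 scaffold genes in FPKM in the 3 WT and 3 TG libraries, with points for libraries and the group mean and SD. TG1 was highest for 8 genes and WT3 lowest for 6, and the ranges of the groups overlapped for every gene.

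Among the Dlg genes, Dlg4, whose product PSD-95 is the most abundant scaffold of the density, had the highest level of all members. The libraries WT1, WT2 and WT3 had 57.6, 59.5 and 58.6 FPKM of Dlg4 and the libraries TG1, TG2 and TG3 had 66.3, 57.5 and 58.3, which gave means of 58.6 ± 0.970 and 60.7 ± 4.88 (SD, n = 3 each). Only TG1 stood above the WT libraries, and the log2 fold change of 0.05 (SE 0.08, adjusted p = 0.88, limma) had a 95% interval of -0.13 to 0.23. Dlg3 (SAP102), prominent at young synapses, had FPKM of 40.6, 43.5 and 37.9 in WT and 44.2, 40.8 and 42.1 in TG. The TG values lay within or just above the WT range, with a log2 fold change of 0.06 (SE 0.07, adjusted p = 0.843).

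Dlg2 (PSD-93), a close relative of PSD-95, had FPKM of 22.7, 22.2 and 18.0 in WT and 25.2, 21.5 and 22.1 in TG. WT3 was the lowest library and TG1 the highest, the other 4 were near each other, and the log2 fold change was 0.13 (SE 0.11, adjusted p = 0.789). Dlg1 (SAP97), which accompanies AMPA receptors along the secretory pathway, had FPKM of 10.3, 8.96 and 10.3 in WT and 9.75, 9.92 and 9.96 in TG. All TG values fell inside the WT range, and the log2 fold change of 0.01 (SE 0.08, adjusted p = 0.982) had a 95% interval of -0.18 to 0.20, or 0.885-fold to 1.15-fold.

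The Shank genes, which encode the master scaffolds of the deeper layer, varied most between libraries. Shank3 had FPKM of 39.2, 40.5 and 28.2 in WT and 52.3, 39.8 and 41.7 in TG, with means of 36.0 ± 6.76 and 44.6 ± 6.75 (SD, n = 3 each). Its log2 fold change of 0.32 (SE 0.16, adjusted p = 0.789, limma) was the largest of the 9, with a 95% interval of -0.07 to 0.70. TG2, TG3, WT1 and WT2 lay between 39.2 and 41.7 FPKM, so that the gap between the groups came from WT3 and TG1, which were 1.85-fold apart.

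Shank1 had the same shape, with FPKM of 41.8, 49.0 and 32.1 in WT and 54.0, 43.8 and 45.7 in TG. Here WT2 exceeded both TG2 and TG3, and the log2 fold change was 0.24 (SE 0.16, adjusted p = 0.789). Shank2 had FPKM of 19.9, 18.9 and 14.3 in WT and 21.5, 19.1 and 18.9 in TG. WT1 was above TG2 and TG3, and the log2 fold change was 0.18 (SE 0.13, adjusted p = 0.789).

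Dlgap1, the linker between PSD-95 and Shank, had FPKM of 36.6, 38.7 and 31.3 in WT and 43.0, 35.9 and 38.9 in TG. TG2 was below WT1 and WT2, and the log2 fold change was 0.14 (SE 0.10, adjusted p = 0.789). A p that missed the threshold does not show equal levels, and the 95% interval for Dlgap1 ran from 0.933-fold to 1.31-fold.

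Homer1 had the smallest p of the members, above the threshold of 0.05. Its FPKM was 8.23, 9.26 and 8.63 in WT and 10.1, 9.21 and 9.95 in TG, with means of 8.71 ± 0.517 and 9.77 ± 0.488 (SD, n = 3 each). TG1 and TG3 were above all WT libraries, whereas TG2 lay just under WT2. The log2 fold change was 0.16 (SE 0.08, adjusted p = 0.788, limma), with a 95% interval of 0.985-fold to 1.27-fold. The row sums all transcripts of Homer1, and the short activity-induced form, Homer1a, is not separated from the long ones.

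**Figure D2:**
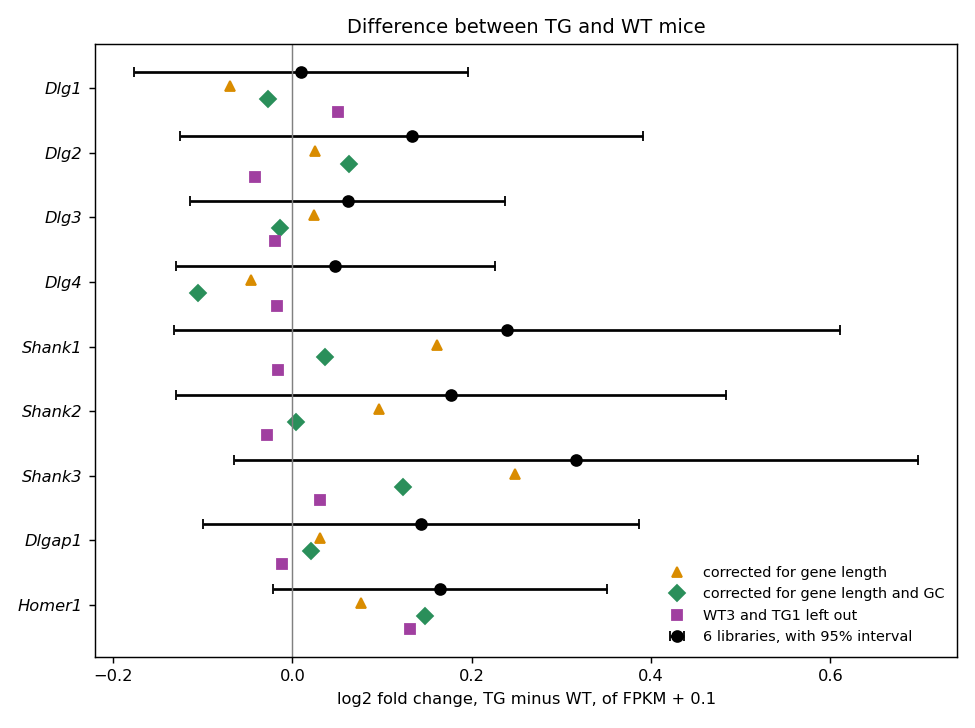
Log2 fold change of TG over WT for the 9 scaffold genes from 6 libraries (black circles, with 95% intervals from limma), after correction for gene length (orange triangles), for gene length and GC (green diamonds) and with WT3 and TG1 left out (purple squares). The circles run from 0.01 for Dlg1 to 0.32 for Shank3 with every interval including 0, 2 triangles, 3 diamonds and 6 squares lie below 0, and every value of Homer1 and Shank3 lies above it.

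Homer1 is a classical immediate early gene, and 1 of its listed promoters is given because it holds the cAMP response element half-site, the sequence bound by CREB. In the RefSeq promoter at chr13:93303507-93303806 (GRCm38.p6, + strand, from 250 bases before the start to 50 after), TGACG, searched on both strands and marked in capitals, occurred 3 times.
Homer1: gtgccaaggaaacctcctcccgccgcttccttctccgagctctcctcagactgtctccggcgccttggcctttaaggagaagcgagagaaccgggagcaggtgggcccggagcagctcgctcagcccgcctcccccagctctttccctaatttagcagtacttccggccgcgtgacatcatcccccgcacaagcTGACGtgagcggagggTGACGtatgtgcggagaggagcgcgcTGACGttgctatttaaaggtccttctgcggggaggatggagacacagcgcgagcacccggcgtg
At least 1 such match was found in 20.8% of the 32851 promoters of the table and at least 3 in 1.03%. The other Homer1 promoter of the table, at chr13:93307784-93308083, held none. Of the 17 promoters listed for 7 members, 3 held the motif. Shank1 and Shank2 had no entry. A match describes letters in the window and no binding was measured.

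Levels per length ordered the scaffold as Dlg4 (mean of all 6 libraries 59.6 FPKM), Shank1 (44.4), Dlg3 (41.5), Shank3 (40.3), Dlgap1 (37.4), Dlg2 (21.95), Shank2 (18.8), Dlg1 (9.86) and Homer1 (9.24). Dlg4 exceeded Shank1, Dlgap1 exceeded Dlg2, and Shank2 exceeded Dlg1 with no overlap between the libraries' ranges. The ranges of Shank1, Dlg3, Shank3 and Dlgap1 overlapped from each gene to the next, and Shank1 led Dlg3 in 5 of 6 libraries. Dlg1 led Homer1 in only 4 of 6. These neighbours were not separated beyond their spread, and Dlg2 led Shank2 in every library although their ranges overlapped.

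The order of shares within each family was the same in all 6 libraries. Of the summed FPKM of Dlg1 to Dlg4, Dlg4 took 45.1% ± 1.66 in WT and 44.6% ± 0.843 in TG, and Dlg3 31.2% ± 1.05 and 31.2% ± 0.717 (SD, n = 3 each). Of the summed Shank FPKM, Shank1 took 43.2% ± 1.91 and 42.6% ± 0.350. Shank3 took 38.9%, 37.4% and 37.8% in WT and 40.9%, 38.7% and 39.2% in TG, so that TG2 lay below WT1. The share of Dlg2 ran from 14.4% in WT3 to 17.3% in WT1 and that of Dlg1 from 6.68% in WT2 to 8.23% in WT3. Shank2 took from 16.8% in TG1 to 19.7% in WT1.

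The Shank sum relative to the Dlg sum was 0.769, 0.807 and 0.599 in WT and 0.879, 0.791 and 0.803 in TG. WT3 was low and TG1 high, and WT2 exceeded TG2 and TG3. Homer1 relative to Dlg4 was 0.143, 0.155 and 0.147 in WT and 0.153, 0.160 and 0.171 in TG, with TG1 below WT2. These shares and ratios are descriptions, and no test was run on them.

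**Figure D3:**
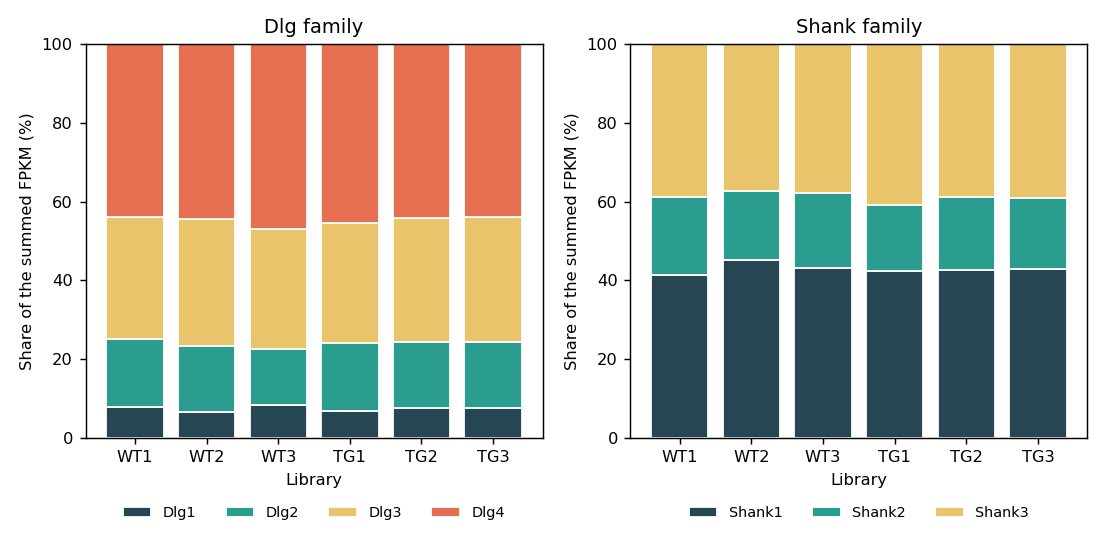
Share of each gene in the summed FPKM of its family, in percent, for Dlg1 to Dlg4 and for Shank1 to Shank3 in each of the 6 libraries. Dlg4 and Shank1 held the greatest shares of their families in all libraries.

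WT3 and TG1, where most of the members' shift lay, also differed over the whole transcriptome by gene length. Relative to the WT mean, the WT libraries had median log2 deviations of the members of 0.05, 0.10 and -0.18, and the TG libraries of 0.27, 0.04 and 0.11, in numerical order. Over 13325 genes with a mean of at least 1 FPKM, the log2 deviation of a library changed by -0.05 per doubling of gene length in WT3 and by 0.07 in TG1, and by -0.02 to 0.01 in the other 4. WT3 and TG1 also had the steepest trends on GC content, -0.04 and 0.06 per 10 percentage points.

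The members are at the long end of this scale. From 1.15% (Dlgap1) to 30.8% (Dlg3) of these genes were longer, and Shank3 and Shank1, with 62.3% and 61.3% GC, were exceeded in GC by 1.59% and 2.40% of them. Among the 4105 genes at least as long as Dlg3, the median log2 fold change was 0.06 and 67.3% were positive, beside a median of -0.004 over the 13325. With each library corrected for its trend on length, the members' median was 0.03 and 7 of 9 were positive, and with length and GC corrected it was 0.02 with 6 of 9.

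With both WT3 and TG1 left out, an alternative added after the data were seen, the median was -0.02 and 3 of 9 were positive, with no p under 0.05. These libraries had been noticed for their members' values, so this value only describes where the shift lay. With WT3 alone left out the median was 0.05, and with TG1 alone left out 0.08. Homer1, at 0.16 with 6 libraries, had a log2 fold change of 0.13 with both left out, 0.08 with length corrected and 0.15 with length and GC corrected. Shank3, at 0.32 with 6 libraries, had 0.03, 0.25 and 0.12 under the same alternatives. The smallest adjusted p of any member was 0.889 with both left out, 0.762 with length corrected and 0.772 with length and GC corrected (limma).

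**Figure D4:**
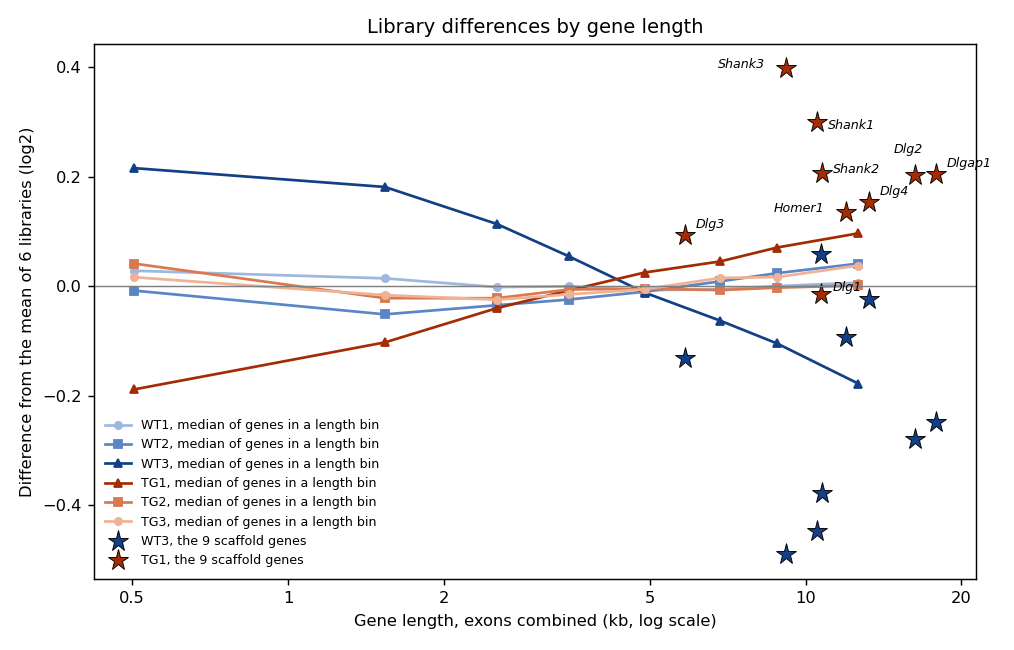
Log2 deviation of each library from the mean of 6 libraries against gene length in kb on a log axis; lines join medians of genes in length bins and stars are the 9 scaffold genes in WT3 and TG1. The line of WT3 goes from 0.22 in the shortest bin to -0.18 in the longest and that of TG1 from -0.19 to 0.10, with most stars beyond the lines.

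Cell type markers were read beside these values. All 6 markers of hippocampal regions were present, 2 of them with a positive log2 fold change, and their median was -0.08. Of 9 markers of neighbouring regions 6 had a positive log2 fold change, where 49.6% of all genes did, and Drd1, Drd2 and Adora2a were negative. Of these 9 only Cux2, a marker of upper cortical layers, lay apart, where 12.1% of all genes did. Its FPKM was 2.79, 2.38 and 2.26 in WT and 3.24, 3.25 and 4.03 in TG (log2 fold change 0.48, adjusted p = 0.786, limma). The median deviation of 8 neuron markers was -0.02, -0.04 and 0.12 in WT and 0.10, -0.12 and -0.003 in TG, high in both WT3 and TG1, with 3 of 8 positive. Of 6 markers of excitatory neurons, the cells that carry most of these synapses, 5 had a positive log2 fold change with a median of 0.10. Their median deviation was -0.03, 0.06 and 0.006 in WT and 0.11, 0.002 and 0.09 in TG. It was highest in TG1 as for the scaffold genes, but lowest in WT1 and not in WT3. The 6 inhibitory neuron markers had -0.03, -0.10 and 0.21 in WT and 0.12, -0.12 and 0.007 in TG, with 2 of 6 positive. The median log2 fold changes of astrocyte, microglia and endothelium markers were 0.02, 0.10 and 0.02. The 6 oligodendrocyte markers summed to 746, 703 and 587 FPKM in WT and 465, 640 and 691 in TG, lowest in TG1. The 9 choroid plexus markers, led by Ttr, summed to 82.2, 57.8 and 73.1 FPKM in WT and to 1210, 3823 and 66.0 in TG. Of these 9 markers, 4 were higher at an unadjusted p under 0.05, against 3.13% of all genes. With the choroid plexus level as a covariate the members' median was 0.12. TG3 was at the WT level of these markers, and its members' median was 0.11 above the WT mean, the value of 1 library with no spread of its own. On the same scale WT2 was close to it at 0.10, WT1 was at 0.05 and WT3 at -0.18. The part of neuron, oligodendrocyte and neighbouring-region content in the result was not tested.

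Genes of other proteins of the excitatory postsynapse did not pass the test either. Of 23 further scaffold genes, 0 were higher and 0 lower at an unadjusted p under 0.05, against 3.13% and 2.78% of all genes tested. A positive log2 fold change was found in 19 of the 23, against 49.6% of all genes, and their median was 0.09. Among the 4105 genes at least as long as Dlg3, 67.3% were positive. Ppp1r9b (spinophilin), which binds actin and protein phosphatase, was the most abundant, with a mean of 337 ± 15.02 FPKM in WT and 360 ± 42.6 in TG. The Homer1 paralogs went separate ways, with a log2 fold change of 0.23 for Homer2 (adjusted p = 0.786, limma) and -0.11 for Homer3 (adjusted p = 0.789).

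Of 19 signalling proteins and receptor partners bound to the scaffold, 0 were higher and 0 lower, against 3.13% and 2.78% of all genes. Of the 19, 15 were positive, against 49.6% of all genes, and the median was 0.10. Agap2, a GTPase-activating protein, led in level with 245 ± 6.61 FPKM in WT and 265 ± 31.8 in TG, and Sipa1l1 (SPAR), which binds PSD-95 and actin, had the smallest p of those with a higher mean, with a log2 fold change of 0.19 (adjusted p = 0.789). Lgi1, the secreted epilepsy protein that bridges to PSD-95 through Adam22, was the only gene of these companion lists whose groups lay apart, where 12.1% of all genes did. Its FPKM was 13.2, 13.8 and 14.4 in WT and 12.8, 12.5 and 11.6 in TG, and its log2 fold change of -0.17 (SE 0.07, adjusted p = 0.786, limma) did not pass.

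Enzymes that attach or remove palmitate, the lipid that holds PSD-95 at the membrane, gave 0 of 7 higher and 0 of 7 lower. Of all genes, 3.13% were higher and 2.78% lower. Only 1 of the 7 was positive, against 49.6% of all genes, and the median was -0.02. Abhd17a, a depalmitoylating enzyme, had 99.7 ± 13.7 FPKM in WT and 97.8 ± 6.96 in TG, and the log2 fold changes of the palmitoyltransferase Zdhhc5 and of Abhd17b were 0.18 and -0.08. Scaffolds of inhibitory synapses gave 0 of 5 in either direction, beside the same shares of all genes, with 4 positive and a median of 0.02. Nlgn2, the adhesion protein of these synapses, had 53.0 ± 4.81 and 57.8 ± 8.08 FPKM, Iqsec3 a log2 fold change of 0.24 (adjusted p = 0.789) and Gphn, the gene of gephyrin, -0.03 (adjusted p = 0.933).

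**Figure D5:**
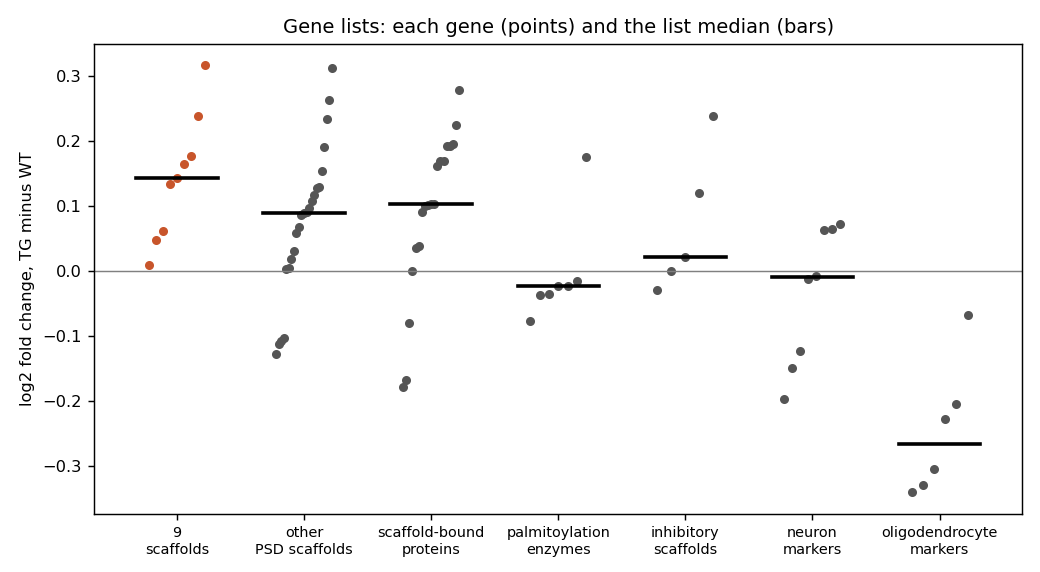
Log2 fold changes of TG over WT, 1 point per gene in order of value, for the 9 scaffold genes, 4 companion lists and the neuron and oligodendrocyte markers, with bars for the list medians. The scaffold genes have the highest median, 0.14, and the oligodendrocyte markers the lowest, -0.27.

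The genes whose pattern over the 6 libraries came nearest to the most variable members were found by root mean square distance of centred log2 values among 13324 genes. For Shank3 these were Arhgef17 (distance 0.02), Map1a, a microtubule-associated protein of dendrites (0.03), and Nova2, a neuronal splicing factor (0.04). Arhgef17 had FPKM of 33.7, 34.6 and 24.4 in WT and 43.9, 33.0 and 35.8 in TG. Its lowest value in WT3 and highest in TG1 follow from its being picked for likeness to Shank3. For Shank1 they were Trrap, an adaptor of histone acetyltransferases (0.02), Ntrk3, the TrkC receptor (0.03), and C130083M11Rik (0.03). Exons of 5 of these 6 genes combined to more than 8 kb, from 8372 bases in Nova2 to 30170 in Ntrk3, and C130083M11Rik had 2072. Among the 13325 genes with a mean of at least 1 FPKM, 1000 had 8 to 10 kb and 1221 had more. These 6 genes were picked for likeness to Shank3 and Shank1, and a link to length was not tested.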

How the data were processed

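Hippocampal RNA in 3 WT and 3 TG libraries was analysed. Per the labels and the paper, the authors counted reads per gene with HTSeq and deposited FPKM, 1 column per library. The submitters' processing notes name GRCm38 and mm10, and the aligner is not given in the sources used here. The paper names Trizol and a NEBNext kit, the labels an RNeasy and a SMARTer kit. Of 54532 identifiers, 54409 were found in GENCODE vM21 and 53325 had a deposited length equal to their combined exons. Read totals recovered from FPKM and length were 16081281 to 18751057 per library, and FPKM as deposited were tested.

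Values were tested as log2(FPKM + 0.1) with limma 3.58.1 in R 4.3.3 (eBayes with trend) on all 20952 genes with a mean of at least 0.1 FPKM, two-sided, with Benjamini-Hochberg adjustment over all of them. A fold change on this scale understates the change of low genes. The fit was tested on simulated data with 20385 genes tested, where it recovered 104 of 191 changed genes (54.5%) and also called 14 unchanged genes. The simulated effect sizes and spread are not given here, so the share recovered is no estimate of power for the members. The exact permutation test of 3 against 3 cannot go below p = 0.1 and was not used. The members and lists were chosen with earlier results of these data known, so no list received a test. Named genes were all members, and from each companion list the most abundant gene and that with the smallest p in each direction. For the most variable members, Shank3 and Shank1, the 3 nearest genes by pattern were named. Alternatives covered the pseudocount, the filter, scaling, the variance model, gene length, a choroid plexus covariate, the replicate number and each library left out. Corrections for length with GC, leaving out both WT3 and TG1, and TG3 alone were added after the data were seen.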

Additional observations from a re-analysis of the deposited data

How the results depend on the processing

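No member passed after adjustment over all genes under any of 21 alternatives (in that with TG3 alone, the single library is assumed to vary like the WT libraries), where the lowest adjusted p was 0.636 (limma). The number of members higher at an unadjusted p under 0.05, 0 as reported, was 1 with limma-voom on recovered reads (Shank3, log2 fold change 0.31, adjusted p = 0.75) and ranged from 0 to 1 when each library was left out in turn (1 without WT2: Homer1, 0.21, adjusted p = 0.636). The number lower was 0 throughout. The median of the members ran from 0.05 to 0.21 over the libraries left out and was -0.0155 with both WT3 and TG1 left out. The sign reversed for Dlg1 (-0.0699) and Dlg4 (-0.0465) with length corrected, for Dlg1 (-0.0275), Dlg3 (-0.0138) and Dlg4 (-0.1053) with length and GC corrected, and for Dlg4 (-0.0077) with TG3 alone. With both WT3 and TG1 left out it reversed for Dlg2 (-0.0414), Dlg3 (-0.0195), Dlg4 (-0.0172), Shank1 (-0.0155), Shank2 (-0.0278) and Dlgap1 (-0.0111). With single libraries left out, Dlg1 ranged from -0.0549 (without WT2) to 0.0422 and Dlg4 from -0.0174 (without TG1) to 0.0854. Homer1 (0.08, with length corrected, to 0.22) and Shank3 (0.03 to 0.41) stayed positive in all 21. The deviations of same-numbered WT and TG libraries had correlations of 0.003 to 0.04. Differently numbered libraries were not compared, so these correlations cannot exclude pairing. With the replicate block the median was 0.14, 0 members were called and 634 genes were higher and 610 lower, with a smallest adjusted p of 0.785 among the members. Over all genes, the choroid plexus covariate gave 330 higher and 374 lower against 656 and 582, and adjusted calls ran from 0 to 9 against 2. Rescaling by medians of ratios used a factor of 1.0024 in every library and so tested little. The cause of these changes was not tested. With 3 libraries a group, the 95% interval of Shank3 reaches 1.62-fold.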
